A study of Mus musculus with 7 samples.

Results

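The 10 genes Grhl1, Grhl3, Klf4, Ovol1, Krtdap, Dmkn, Sbsn, Lypd3, Cnfn and Cdsn were followed in medullary thymic epithelial cells (mTECs) of mouse thymus. They are the transcription factors and the secreted, surface and adhesion proteins of terminal keratinocyte differentiation, apart from the keratins and the cornified envelope gene cluster, and were taken by symbol from a table of 55536 genes. All 10 were found, and all 10 passed the minimum of 5 normalized counts on average over the libraries that 22878 genes passed. RNA came from freshly sorted EPCAM-positive cells lysed in SMART-seq buffer, a chemistry for full-length cDNA from small numbers of cells. The 7 libraries fell into 2 genotypes: Cre-negative Ikzf1 fl/fl Pou2f3-/- (4 libraries, numbered 46, 48, 75 and 77) and Cre-positive Ikzf1 fl/fl Pou2f3-/- (3 libraries, numbered 45, 76 and 80). Both genotypes thus carried floxed Ikzf1, which encodes the zinc finger factor Ikaros, and lacked Pou2f3, the master factor of tuft cells, so that the comparison asked what Ikaros changes where tuft cells are missing. Pou2f3, also known as Skn-1a, is itself a factor of epidermal differentiation, and no library with intact Pou2f3 was part of the comparison. The sources used here give neither the Cre driver nor the floxed exon nor the age of the mice. Whether the numbers stand for separate mice is not said either, and p-values therefore reflect only how these libraries vary, which can be technical in part.

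In skin, keratinocytes leave the basal layer, switch keratins, build desmosomes and finally cross-link a cornified envelope. Grainyhead-like factors, Klf4 and Ovol1 act in that programme, and the proteins of the other genes are secreted by, or sit on the surface of, the suprabasal and cornified cells. In the thymus, some mTECs pass through an Aire-positive stage and then take on features of other tissues, among them a keratinocyte-like state that forms the cornified Hassall's corpuscles.

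Recovered reads per library ranged from 9815958 to 12599078 in the Cre-negative and from 11383465 to 11623062 in the Cre-positive group. Genes with at least 10 reads numbered 20035 ± 453 (SD, n = 4) in Cre-negative and 17453 ± 486 (SD, n = 3) in Cre-positive libraries, and the 100 most abundant genes held 27.7% ± 1.28 and 31.2% ± 0.14 of reads. The share of reads from genes of the mitochondrial genome was 5.11% ± 0.28 and 6.71% ± 0.28. The part of these library differences in the results below was not tested. Library numbers formed 2 ranges, 45 to 48 and 75 to 80, each holding both genotypes, and differences within each range are given below. Cre-negative 48 was the only library with reads from Y-linked genes above trace level. Ikzf1 read between 1119 and 1219 normalized counts in Cre-negative and between 1310 and 1829 in Cre-positive libraries (log2 fold change 0.46, adjusted p = 0.0916), a sum over the whole gene that does not check a deleted exon.

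All 10 genes had a lower mean in Cre-positive than in Cre-negative libraries, and 4 of them (Grhl1, Grhl3, Ovol1 and Lypd3) were called lower by limma at an adjusted p under 0.05. None was called higher, and 6 were not called. Of all tested genes, 9.11% were called lower and 4.66% higher. The median log2 fold change, Cre-positive minus Cre-negative on the log2(normalized count + 1) scale, was -1.16 over the 10 genes and -0.10 over all tested genes, of which 54.7% had a value below 0. In 3 genes, Grhl1, Grhl3 and Klf4, every Cre-positive library lay below every Cre-negative library, as did 14.5% of all tested genes. RNA was measured over bulk sorted cells, so fewer cells of a kind and less RNA per cell cannot be told apart.

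**Figure D1:**
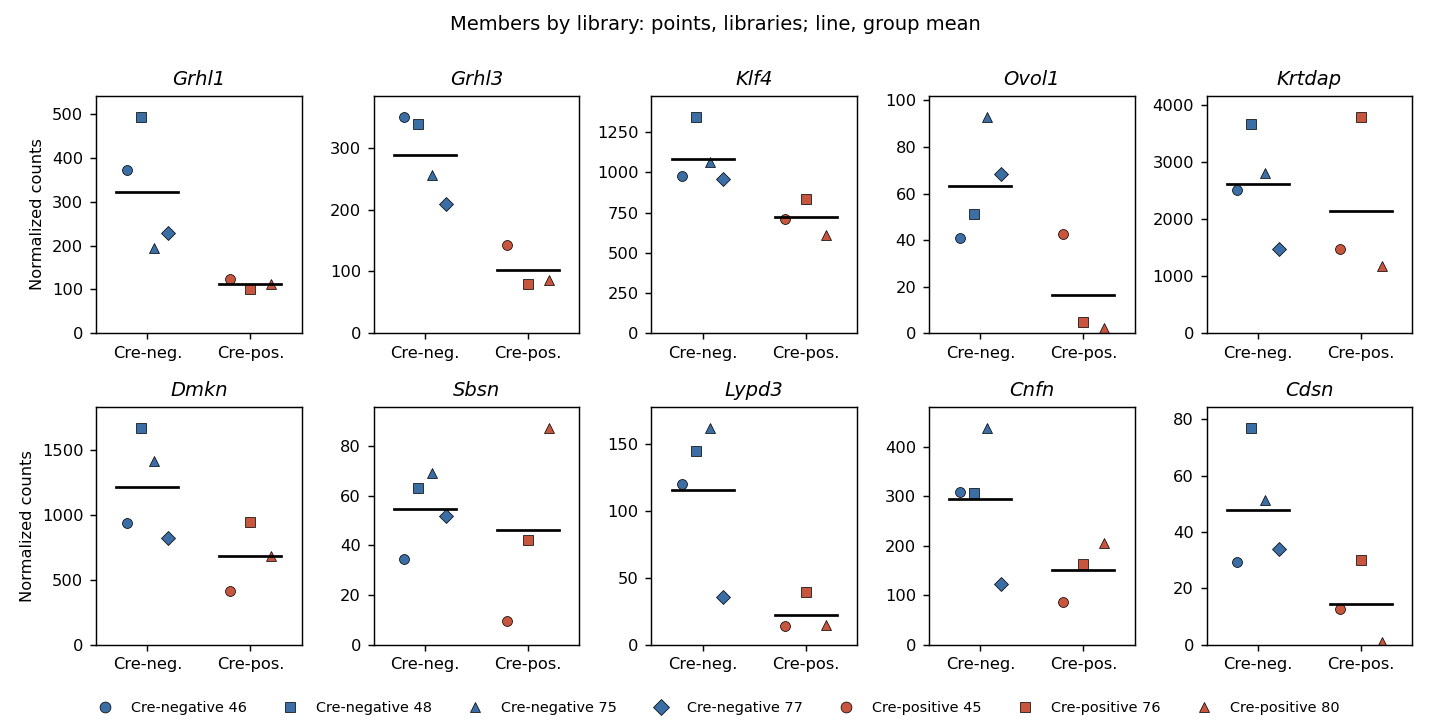
Normalized counts of the 10 genes (vertical axis, linear, from 0) in the 4 Cre-negative (blue) and 3 Cre-positive (red) libraries; points are libraries and lines are group means. Grhl1, Grhl3 and Klf4 have groups that do not overlap, whereas in the other 7 genes at least 1 Cre-positive library reaches the Cre-negative range.

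Grhl3, a grainyhead-like factor required for the epidermal barrier, fell in Cre-positive libraries. It lies on the minus strand at chr4:135541888-135573630 of GRCm38 (ENSMUSG00000037188). Cre-negative libraries 46, 48, 75 and 77 held 349.5, 337.9, 256.7 and 208.8 normalized counts, while Cre-positive libraries 45, 76 and 80 held 142.1, 80.1 and 86.2. The highest Cre-positive library stood well under the lowest Cre-negative library. The means were 288.2 ± 67.1 (SD, n = 4) and 102.8 ± 34.2 (SD, n = 3), 2.80-fold lower, and the log2 fold change was -1.50 (SE 0.31, 95% interval -2.16 to -0.83, adjusted p = 0.00696). The difference was of like size in both number ranges, -1.27 among libraries 45 to 48 and -1.47 among libraries 75 to 80. Grhl3 was called lower under all 17 alternative settings run, with log2 fold changes from -1.75 to -1.34.

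Grhl1, a grainyhead-like factor of desmosomal cadherin genes, also fell. It lies on the plus strand at chr12:24572283-24617391 (ENSMUSG00000020656). Of Grhl1, Cre-negative libraries 46, 48, 75 and 77 held 372.1, 492.5, 194.6 and 228.5 normalized counts, while Cre-positive libraries 45, 76 and 80 held 124.3, 101.1 and 112.1. The Cre-positive libraries lay close together, whereas Cre-negative 46 and 48 were higher than 75 and 77. The means were 321.9 ± 137 (SD, n = 4) and 112.5 ± 11.6 (SD, n = 3), 2.86-fold lower, and the log2 fold change came to -1.41 (SE 0.33, 95% interval -2.13 to -0.70, adjusted p = 0.0141). The difference was -1.78 among libraries 45 to 48 and -0.98 among libraries 75 to 80. Of the 17 alternatives, leaving out Cre-negative 46 alone ended the call (-1.31, adjusted p = 0.0504).

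Grhl2, the third grainyhead-like factor, which maintains epithelial identity, was not called: its means were 270.2 ± 77.2 (SD, n = 4) and 272.8 ± 8.4 (SD, n = 3), with a log2 fold change of 0.06 and an adjusted p of 0.918. The ratio of paralogs within a library hardly depends on how libraries are scaled, and 2 such ratios were computed after these values had been seen. The log2 ratio of Grhl1 to Grhl2 was 0.19 ± 0.68 (SD, n = 4) in Cre-negative and -1.28 ± 0.10 (SD, n = 3) in Cre-positive libraries. That of Grhl3 to Grhl2 was 0.10 ± 0.32 (SD, n = 4) and -1.45 ± 0.41 (SD, n = 3). In both ratios every Cre-positive library lay below every Cre-negative library. The two-sided exact permutation p, taken as the smaller tail doubled, was 0.0571 (also after Benjamini-Hochberg adjustment over both). That is the smallest that such doubling allows with 4 against 3 libraries.

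Klf4, a zinc finger factor that drives the late steps of barrier formation, was the most abundant of the 4 factors per kilobase. It lies on the minus strand at chr4:55527143-55532466 (ENSMUSG00000003032). For Klf4, Cre-negative libraries 46, 48, 75 and 77 held 976.3, 1343.5, 1062.1 and 956.3 normalized counts, while Cre-positive libraries 45, 76 and 80 held 711.6, 835.2 and 613.5. The groups did not overlap, with means of 1085 ± 179 (SD, n = 4) and 720.1 ± 111 (SD, n = 3). The log2 fold change of -0.59 (SE 0.19, 95% interval -1.002 to -0.17) did not pass the threshold, with an adjusted p of 0.0596. Differences were -0.69 and -0.49 in the lower and the higher number range. It was called with a minimum mean of 20 (-0.59, adjusted p = 0.0497), by DESeq2 (-0.59, adjusted p = 0.0426) and with library total scaling (-0.79, adjusted p = 0.0208). The authors' deposited table gives Klf4 an adjusted p of 0.0365.

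Ovol1, a zinc finger repressor that acts as keratinocytes stop dividing, was called lower, with Cre-positive libraries that differed widely among themselves. It lies on the minus strand at chr19:5549137-5560575 (ENSMUSG00000024922). Of Ovol1, Cre-negative libraries 46, 48, 75 and 77 held 41.1, 51.2, 92.8 and 68.2 normalized counts, while Cre-positive libraries 45, 76 and 80 held 42.8, 5.0 and 2.1. Cre-positive 45 stood above Cre-negative 46, while Cre-positive 76 and 80 were near 0. The means were 63.3 ± 22.6 (SD, n = 4) and 16.6 ± 22.7 (SD, n = 3), and the log2 fold change was -2.72 (SE 0.82, 95% interval -4.48 to -0.96, adjusted p = 0.0428). The difference was -0.10 among libraries 45 to 48 and -4.22 among libraries 75 to 80, and whether the ranges differ was not tested. The call was lost in 11 of 17 alternatives, among them edgeR (-1.94, adjusted p = 0.167), DESeq2 (-1.93, adjusted p = 0.0769) and leaving out any library other than Cre-positive 45 (-2.90 to -1.92, adjusted p 0.0719 to 0.129). Without Cre-positive 45 the log2 fold change was -3.83 (adjusted p = 0.0036). The pseudogene Gm31166 overlaps Ovol1 and held at most 4.2 normalized counts in any library.

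**Figure D2:**
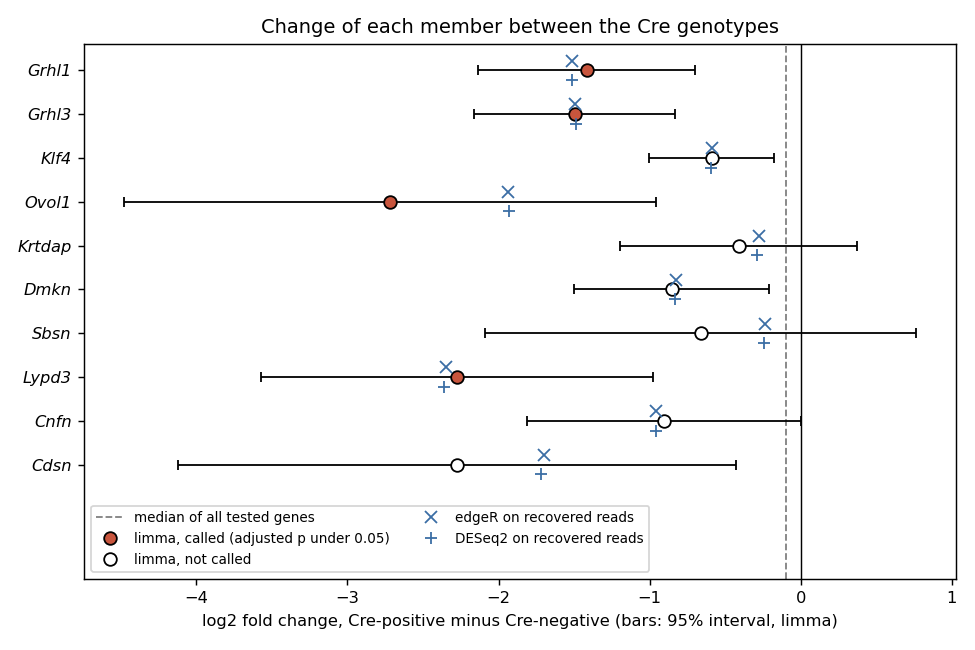
Log2 fold change of each gene, Cre-positive minus Cre-negative (horizontal axis), with limma's 95% interval as the bar; filled circles are called, open circles are not, and crosses and plus signs are edgeR and DESeq2 on recovered reads. All 10 circles lie left of 0, and the intervals of Krtdap, Sbsn and Cnfn reach past 0.

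The promoters of these genes were read for letters of 3 binding motifs, in the 250 bases before each RefSeq start on GRCm38.p6, on both strands. Of the 10 genes, 9 matched entries, with 13 start sites; Ovol1 had no match. The Ikaros core, TGGGAA, was in 6 of the 13 windows, those of Grhl3, Krtdap, Cnfn and Sbsn and 2 nearly coincident windows of Dmkn, against 21.6% of 32851 windows of all genes. The AP-1 motif, TGANTCA, was in 5 of 13 windows against 6.75% of all. By gene these were 3 of the 9 matched, Sbsn, Dmkn and Krtdap, which adjoin each other on chromosome 7. The 2 nearly coincident windows of Dmkn held the same match. The grainyhead motif, AACCNGGTT, was in none of the 13 windows and in 0.24% of all. A match is a run of letters and no evidence of binding, and neither does a missing match say anything of the factor.

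The windows of the 3 adjoining genes are shown for the letters they share, with that of Grhl3 for its single match. Each is written 5′ to 3′ along the gene's own strand and ends at the base before the RefSeq start, with the AP-1 motif and the Ikaros core in capitals. They lie at chr7:30751221-30751470 (plus strand, Sbsn), chr7:30763506-30763755 (plus strand, Dmkn), chr7:30787655-30787904 (plus strand, Krtdap) and chr4:135573633-135573882 (minus strand, Grhl3).
Sbsn: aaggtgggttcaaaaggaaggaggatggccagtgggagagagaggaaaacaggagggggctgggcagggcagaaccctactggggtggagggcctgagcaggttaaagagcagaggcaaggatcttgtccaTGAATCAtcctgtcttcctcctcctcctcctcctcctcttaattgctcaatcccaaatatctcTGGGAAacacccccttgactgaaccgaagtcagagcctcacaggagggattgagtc
Dmkn: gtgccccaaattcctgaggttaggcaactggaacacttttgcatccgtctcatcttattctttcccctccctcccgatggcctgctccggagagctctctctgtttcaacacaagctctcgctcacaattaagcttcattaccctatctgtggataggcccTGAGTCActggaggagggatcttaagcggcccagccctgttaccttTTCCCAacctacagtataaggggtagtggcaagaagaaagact
Krtdap: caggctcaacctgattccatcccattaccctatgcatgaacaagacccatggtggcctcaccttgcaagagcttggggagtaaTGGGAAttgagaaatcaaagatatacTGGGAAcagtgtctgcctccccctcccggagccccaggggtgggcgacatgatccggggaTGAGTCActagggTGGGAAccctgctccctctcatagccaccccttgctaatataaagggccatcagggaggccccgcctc
Grhl3: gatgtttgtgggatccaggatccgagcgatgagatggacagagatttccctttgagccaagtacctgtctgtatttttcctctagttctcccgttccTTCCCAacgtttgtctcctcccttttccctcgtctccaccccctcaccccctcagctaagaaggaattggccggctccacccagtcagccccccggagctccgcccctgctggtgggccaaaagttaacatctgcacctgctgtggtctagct
The AP-1 letters began 119, 89 and 81 bases before the start in Sbsn, Dmkn and Krtdap, and the Ikaros core of Grhl3 began 153 bases before its start.

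Krtdap, Dmkn and Sbsn encode the small secreted proteins keratinocyte differentiation-associated protein, dermokine and suprabasin of the suprabasal layers. They lie in a row on the plus strand of chromosome 7, Sbsn at chr7:30751471-30756134 (ENSMUSG00000046056), Dmkn at chr7:30763756-30781063 (ENSMUSG00000060962) and Krtdap at chr7:30787896-30791097 (ENSMUSG00000074199), a span of 39627 bases. None of the 3 was called.

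For Dmkn, Cre-negative libraries 46, 48, 75 and 77 held 940.3, 1666.6, 1412.5 and 825.0 normalized counts, while Cre-positive libraries 45, 76 and 80 held 410.7, 943.3 and 685.1. Cre-positive 76 lay inside the Cre-negative range, above 46 and 77, and the other Cre-positive libraries lay below it. The means were 1211 ± 396 (SD, n = 4) and 679.7 ± 266 (SD, n = 3), and the log2 fold change was -0.85 (SE 0.30, 95% interval -1.50 to -0.21, adjusted p = 0.0776). Dmkn passed the threshold without Cre-positive 76 (-1.13, adjusted p = 0.0397) and with library total scaling (-1.06, adjusted p = 0.0368). Its difference was -1.61 among libraries 45 to 48 and -0.42 among libraries 75 to 80.

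Krtdap had the highest level per kilobase of exon of the 10 genes in both genotypes. Of Krtdap, Cre-negative libraries 46, 48, 75 and 77 held 2505.7, 3668.1, 2805.2 and 1483.6 normalized counts, while Cre-positive libraries 45, 76 and 80 held 1469.2, 3783.3 and 1179.2. Cre-positive 76 was the highest library of all 7 and Cre-positive 45 and 80 were the lowest. The log2 fold change was -0.41 (SE 0.36, adjusted p = 0.502), with a 95% interval of -1.20 to 0.38 that holds both a fall and a small rise. It was -1.04 in the lower and 0.05 in the higher number range, and it moved from -0.92 without Cre-positive 76 to -0.08 without Cre-positive 80.

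Sbsn was scarce. Cre-negative libraries 46, 48, 75 and 77 held 34.4, 63.0, 69.4 and 51.7 normalized counts, while Cre-positive libraries 45, 76 and 80 held 9.4, 42.1 and 87.2. Cre-positive libraries held both the lowest and the highest value of all 7. The log2 fold change was -0.66 (SE 0.66, 95% interval -2.09 to 0.77, adjusted p = 0.558). It was -2.19 among libraries 45 to 48 and 0.02 among libraries 75 to 80, and leaving out Cre-positive 45 turned it to 0.20 (adjusted p = 0.862). The processed transcript AC167978.1 overlaps Sbsn on the same strand and held 0 normalized counts in every library. No source used here says how reads of such an overlap were counted, so the level of Sbsn may be understated.

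Of the genes within 50 kb of the 3, the tested ones upstream of Sbsn were higher or not called. Atp4a, the proton pump subunit of gastric parietal cells, rose with a log2 fold change of 2.16 (adjusted p = 0.00136), and Tmem147 rose by 0.91 on the log2 scale (adjusted p = 0.00480).

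**Figure D3:**
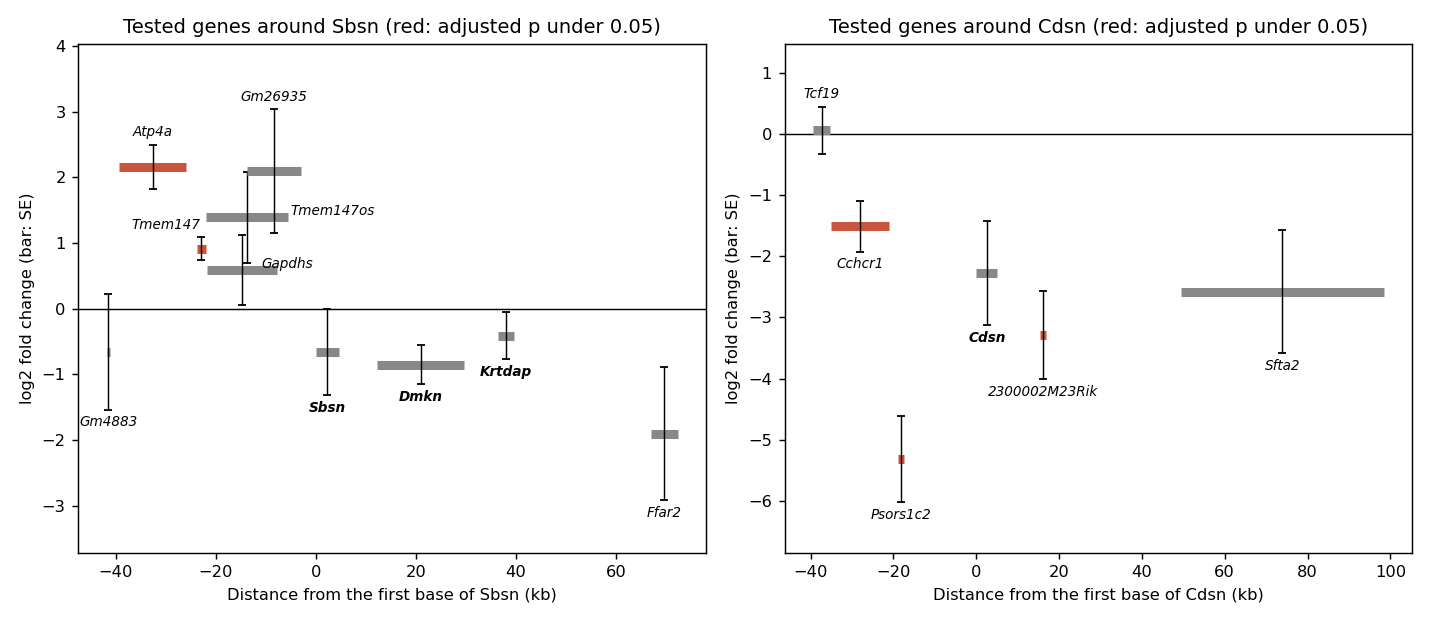
Log2 fold change (vertical axis; bar, SE) of tested genes against distance in kilobases from the first base of Sbsn (left) and of Cdsn (right), each gene drawn over its own span, in red where called. Around Sbsn the called genes are Atp4a and Tmem147, both higher; around Cdsn they are Cchcr1, Psors1c2 and 2300002M23Rik, all lower.

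Lypd3, a GPI-anchored surface protein of the Ly6/uPAR family also known as C4.4A, was called lower and had the largest ratio of group means of the 10 genes. It lies on the plus strand at chr7:24636550-24641118 (ENSMUSG00000057454). For Lypd3, Cre-negative libraries 46, 48, 75 and 77 held 119.8, 144.8, 161.3 and 35.2 normalized counts, while Cre-positive libraries 45, 76 and 80 held 13.6, 39.1 and 14.5. Cre-negative 77 stood apart from its group and lay below Cre-positive 76. The means were 115.3 ± 56.0 (SD, n = 4) and 22.4 ± 14.5 (SD, n = 3), 5.15-fold lower, and the log2 fold change was -2.27 (SE 0.60, 95% interval -3.57 to -0.97, adjusted p = 0.0252). Both number ranges held the difference, -3.18 and -1.62. The call was lost on leaving out Cre-negative 46, 48 or 75, or either Cre-positive 45 or 80 (-2.19 to -2.02, adjusted p 0.0649 to 0.0762), by limma-voom (-2.33, adjusted p = 0.0761) and with the Y-linked covariate (-2.08, adjusted p = 0.0803). It held in DESeq2 and edgeR, and the authors' deposited table calls it too, with a log2 fold change of -2.36. The antisense gene Gm26550 overlaps it and held at most 16.0 normalized counts, in Cre-positive 76, and since no source used here gives the strand setting of the counting, reads of the pair may not be told apart.

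Cnfn, which encodes cornifelin of the cornified envelope, lies on the minus strand at chr7:25367620-25369724 (ENSMUSG00000063651). Cre-negative libraries 46, 48, 75 and 77 held 308.4, 306.3, 436.9 and 122.0 normalized counts, while Cre-positive libraries 45, 76 and 80 held 85.7, 163.2 and 204.5. As with Lypd3, the low Cre-negative library was 77, which lay below 2 Cre-positive libraries. The means were 293.4 ± 130 (SD, n = 4) and 151.1 ± 60.3 (SD, n = 3), and the log2 fold change of -0.90 (SE 0.42, 95% interval -1.81 to 0.01, adjusted p = 0.178) was not called. Without Cre-negative 77 it was -1.28 and passed (adjusted p = 0.0402). It was -1.83 in the lower and -0.34 in the higher number range. Cxcl17, a chemokine gene within 50 kb of it, was called lower (-3.99, adjusted p = 0.0259), a call lost without any 1 of the Cre-negative libraries (-4.10 to -3.88, adjusted p 0.0558 to 0.0636), by edgeR (-2.45, adjusted p = 0.0895), by DESeq2 (-2.43, adjusted p = 0.213) and with the Y-linked covariate (-4.11, adjusted p = 0.0653).

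Cdsn encodes corneodesmosin, the adhesive glycoprotein of the desmosomes of cornified cells, and lies on the plus strand at chr17:35552128-35557180 (ENSMUSG00000039518). Of Cdsn, Cre-negative libraries 46, 48, 75 and 77 held 29.3, 76.8, 51.3 and 34.1 normalized counts, while Cre-positive libraries 45, 76 and 80 held 12.5, 30.0 and 1.0. Cre-positive 76 just overlapped Cre-negative 46. The means were 47.9 ± 21.5 (SD, n = 4) and 14.5 ± 14.6 (SD, n = 3), and the log2 fold change was -2.27 (SE 0.85, 95% interval -4.12 to -0.43), not called at an adjusted p of 0.0980. Its differences were -1.85 and -2.44 in the 2 number ranges. It passed without Cre-positive 76 (-3.13, adjusted p = 0.0376), and leaving out Cre-positive 80 brought it to -1.16.

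Beside Cdsn lie genes of the same psoriasis susceptibility region, and 3 of the 5 tested within 50 kb were called lower. For Psors1c2, Cre-negative libraries 46, 48, 75 and 77 held 1088.6, 1892.2, 1994.5 and 1950.9 normalized counts, while Cre-positive libraries 45, 76 and 80 held 185.0, 8.0 and 43.6. The groups lay far apart, and the log2 fold change came to -5.32 (SE 0.70, adjusted p = 4.66e-04), in the same direction and called in all 17 alternatives. 2300002M23Rik, which has no settled role, was also lower (-3.29, adjusted p = 0.0101), as was Cchcr1 (-1.51, adjusted p = 0.0300), whose call was lost on leaving out Cre-negative 48 or 75, or either Cre-positive 76 or 80 (-1.58 to -1.20, adjusted p 0.0520 to 0.108), by limma-voom (-1.51, adjusted p = 0.0627) and with the Y-linked covariate (-1.29, adjusted p = 0.0990). Over all 10 genes, 29 neighbours within 50 kb were tested, of which 4 were called lower and 2 higher, with a median of -0.05. The shares over all tested genes were 9.11% and 4.66%.

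Levels can be set against each other per kilobase of exon. In Cre-negative libraries Krtdap stood first at 3852 normalized counts per kilobase, followed by Dmkn (553), Cnfn (408) and Klf4 (356), whose ranges over libraries overlapped. Grhl3 (103), Lypd3 (69.9) and Grhl1 (58.1) came next, also with overlapping ranges, and Ovol1 (18.2), Cdsn (17.9) and Sbsn (15.1) were lowest and did not differ beyond their spread. In Cre-positive libraries Krtdap stood at 3157 and Dmkn at 310, while Grhl3 was at 36.9, Grhl1 at 20.3, Lypd3 at 13.6, Sbsn at 12.8, Cdsn at 5.41 and Ovol1 at 4.77. The exon length counts every annotated isoform, so levels of genes with rare long isoforms are understated. What the overlap with AC167978.1 does to the level of Sbsn was not tested.

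The libraries did not rank alike over the 10 genes. Among Cre-negative libraries the highest was 48 for 5 genes, 75 for 4 and 46 for 1, and the lowest was 77 for 6. Among Cre-positive libraries the highest was 76 for 5 genes, 45 for 3 and 80 for 2. Libraries 45 to 48 showed a lower Cre-positive level for 10 of 10 genes, and libraries 75 to 80 for 8 of 10, the exceptions being Krtdap and Sbsn at differences of 0.05 and 0.02. The contrast among libraries 45 to 48 has 1 Cre-positive library, and so no spread of its own. Both ranges are parts of the libraries behind the main test, so their counts do not replicate it. The like shares over all tested genes were not computed.

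**Figure D4:**
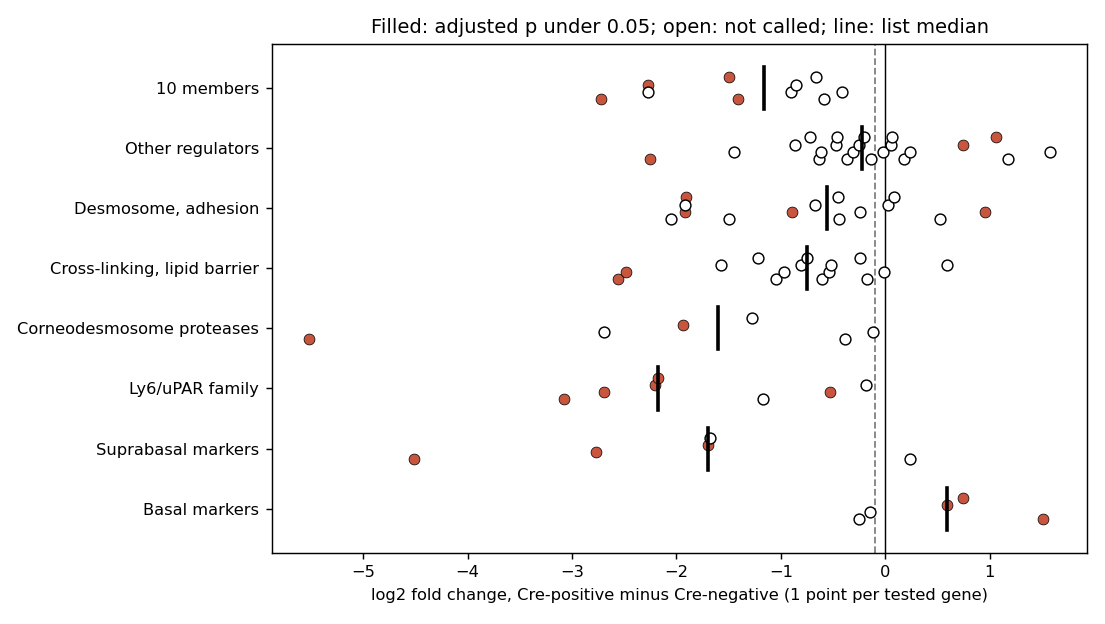
Log2 fold change (horizontal axis, Cre-positive minus Cre-negative) of every tested gene of the 10 and of related lists; filled points are called, black lines are list medians and the dashed line is the median of all tested genes. The Ly6/uPAR list has the lowest median (-2.18), followed by the suprabasal markers (-1.70) and the proteases (-1.60), and the basal markers lie mostly above 0.

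Other genes of the programme were taken from 5 lists that hold 65 genes, 64 of them tested. Of these, 13 were called lower and 3 higher, with a median log2 fold change of -0.53. Over all tested genes, for comparison with these and the counts per list, 9.11% were called lower and 4.66% higher. Among 22 other regulators of stratified epithelium, 1 was lower and 2 were higher (median -0.23). Gata3, a zinc finger factor of barrier lipid synthesis in skin, fell, with means of 168.8 ± 54.3 (SD, n = 4) and 39.0 ± 27.1 (SD, n = 3) normalized counts (log2 fold change -2.25, adjusted p = 0.00871). Maf, a late differentiation factor, rose from 1189 ± 140 to 2487 ± 278 (SD, n = 4 and 3; 1.07, adjusted p = 0.00132). Trp63, the basal layer's master factor, was called higher (0.74, adjusted p = 0.0362), a call lost without Cre-negative 46 or 77 or any 1 Cre-positive library (0.56 to 0.75, adjusted p 0.0826 to 0.0883) and with library total scaling (0.54, adjusted p = 0.118). Ovol2, the paralog of Ovol1, stood at -1.45 (adjusted p = 0.227) and was not called.

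Of 14 desmosome and adhesion genes, 3 were lower and 1 higher, with a median of -0.56. Dsg1a, a desmosomal cadherin of the upper layers, fell, with means of 2528 ± 141 (SD, n = 4) and 709.0 ± 325 (SD, n = 3) normalized counts (-1.92, adjusted p = 3.0e-04). Perp, a desmosomal membrane protein, rose (0.96, adjusted p = 0.00681). Dsg1b, a near-identical copy of Dsg1a with which reads may be shared, was called at -1.91 (adjusted p = 0.0336), but not without any 1 library other than Cre-positive 45 (-1.95 to -1.29, adjusted p 0.0689 to 0.104), by edgeR (-1.46, adjusted p = 0.109) or with the Y-linked covariate (-1.96, adjusted p = 0.0772).

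Of 6 tested proteases and inhibitors that act on corneodesmosomes, 2 were lower, with a median of -1.60. Klk5 and Klk7, the kallikreins that cleave corneodesmosin, fell, with means of 245.3 ± 80.9 (SD, n = 4) and 9.73 ± 13.4 (SD, n = 3) normalized counts (-5.52, adjusted p = 0.00125) and from 408.3 ± 93.3 to 119.1 ± 66.3 (SD, n = 4 and 3; -1.93, adjusted p = 0.00640). Their substrate's gene, Cdsn, was not called, as given above.

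Of 7 other Ly6/uPAR genes, the family of Lypd3, 5 were lower, with a median of -2.18. Of these 5, Slurp1, Lypd2, Slurp2 and Ly6d lie close together at chr15:74724318-74763620. Slurp1, a secreted member, fell, with means of 246.8 ± 40.3 (SD, n = 4) and 39.6 ± 17.1 (SD, n = 3) normalized counts (-2.69, adjusted p = 6.08e-04), and Slurp2 fell by 2.21 on the log2 scale (adjusted p = 0.00916). Lypd5 was called at -3.08 (adjusted p = 0.0388), a call lost on leaving out Cre-negative 46, 48, 75 or else Cre-positive 45 (-3.01 to -2.11, adjusted p 0.0908 to 0.110), by edgeR, by limma-voom, with no minimum and with the Y-linked covariate (-3.47 to -2.94, adjusted p 0.0511 to 0.0992). Of 15 cross-linking and lipid barrier genes, 2 were lower, with a median of -0.75: Asprv1, the protease that processes filaggrin (436.7 ± 99.0 to 74.0 ± 23.4; SD, n = 4 and 3; -2.56, adjusted p = 2.48e-04), and Tgm5, a transglutaminase (-2.48, adjusted p = 0.00783).

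Markers of the cell kinds the sort could hold moved as follows. Over all tested genes, 9.11% were called lower and 4.66% higher. Of 5 suprabasal markers, 3 were called lower, with a summed level of 1032 to 2079 normalized counts in Cre-negative and 790 to 1329 in Cre-positive libraries. Krt10, with means of 812 and 938 the largest part of that sum, stood at 0.24 (adjusted p = 0.593). Involucrin (Ivl) stood at -4.52 (adjusted p = 0.00601). Of 5 basal markers, 3 were called higher, with a summed level of 7059 to 8997 against 11462 to 13122. They were Krt14 (1.51, adjusted p = 0.00132), Krt5 (0.59, adjusted p = 0.0475) and Trp63, whose call was lost in alternatives given above. Krt14 had means of 1640 and 4594. Krt15 (-0.15) and Itga6 (-0.25) were not called, and for Itga6 every Cre-positive library lay below every Cre-negative library. Of 6 mTEC markers, 2 were lower, Cd80 (-1.87, adjusted p = 2.51e-04) and Aire (-0.56, adjusted p = 0.0395), and 0 were higher. Epcam, used for the sort, was at 4644 ± 547 (SD, n = 4) and 6057 ± 627 (SD, n = 3), not called. Of 5 cortical epithelial markers, Ccl25 was lower (-0.82, adjusted p = 0.0185) and Ctsl higher (1.46, adjusted p = 3.6e-04), with summed levels of 16005 to 18979 and 17239 to 26665. In these sums only Ctsl had a higher Cre-positive mean (4664 and 12952). Psmb11 (-0.96), Prss16 (-0.50) and Ly75 (-0.76) had values below 0 and were not called. The call of Ccl25 was lost on leaving out Cre-positive 76 (-0.68, adjusted p = 0.0802) or 80 (-0.70, adjusted p = 0.0672) and with the Y-linked covariate (-0.71, adjusted p = 0.0508). Of 6 thymocyte markers none was called, with summed levels of 604 to 1032 and 405 to 1699, and 2 of 5 myeloid markers were lower and 1 higher, with summed levels of 4870 to 6649 and 7114 to 11271 that were mostly Lyz2. Of 4 fibroblast markers 1 was lower, and of 3 B cell and 3 endothelial markers none was called. The part of these cell kinds in the fall of Grhl1, Grhl3, Ovol1 and Lypd3 was not tested.

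**Figure D5:**
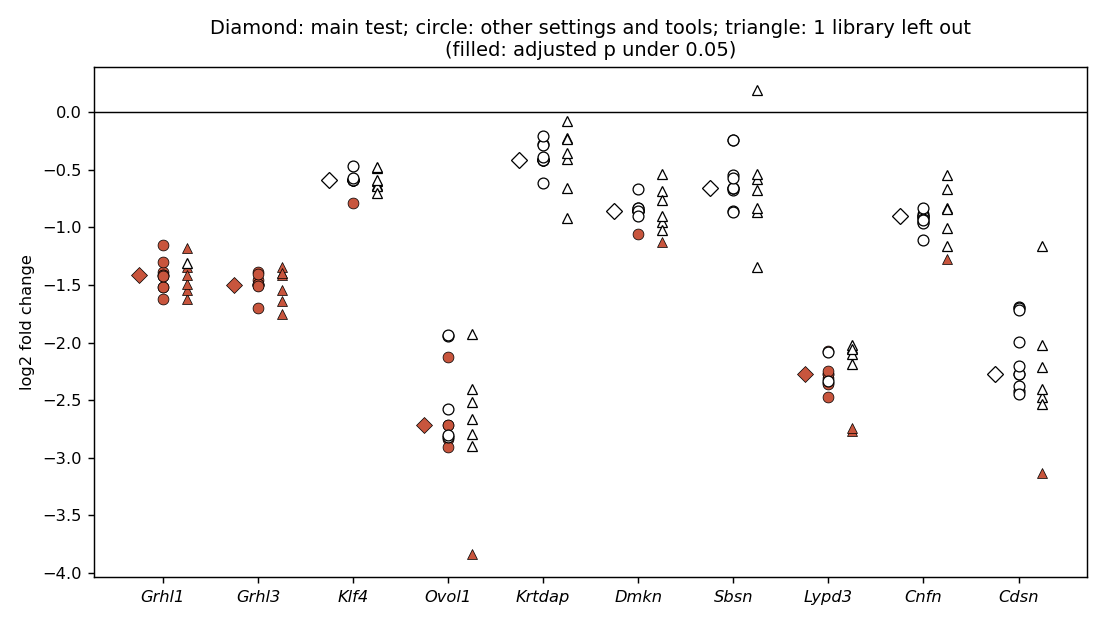
Log2 fold change of each gene (vertical axis) under the main test (diamond), 10 other settings and tools (circles) and 7 fits that leave out 1 library (triangles); filled symbols are called. All symbols of Grhl3 are filled, all but 1 of Grhl1, and a single symbol lies above 0, Sbsn without Cre-positive 45.

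Of the 170 values in the plot of alternatives for the 10 genes, 169 were below 0. They are refits of the same 7 libraries for genes below 0 in the main test, and so no separate support. The authors' deposited table calls 4 of the 10 genes lower, Grhl1 (-1.52), Grhl3 (-1.49), Klf4 (-0.59) and Lypd3 (-2.36). That table holds no adjusted p for Krtdap, and the share of all its genes called lower was not computed. The authors' table thus shares Grhl1, Grhl3 and Lypd3 with the calls given here, and gives Ovol1 -1.93 with an adjusted p of 0.0663.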

How the data were processed

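RNA-seq of 7 libraries was analysed, 4 Cre-negative and 3 Cre-positive by genotype label. Per the submitters' processing notes, STAR 2.7.9a, DESeq2 and build GRCm39 were used; no source used here names the counting tool or its strandedness. Gene positions in the deposited table equal those of GENCODE M21, so they are given on GRCm38. Per the file headers, the signal per library is the authors' normalized count, a gene count divided by a size factor, deposited with 1 decimal. The deposited table also gives the authors' log2 fold change and adjusted p-value, the sign of which is turned here so that negative means lower in Cre-positive libraries.

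Values of log2(normalized count + 1) were fitted with limma 3.58.1 (R 4.3.3) with an intensity trend and genotype as the only term, over the 22878 genes with a mean of at least 5. P-values were adjusted by the Benjamini-Hochberg method over all of them, and genes under 0.05 were called. The normalized counts were turned back into whole reads, all whole within a tolerance of 0.0501 normalized counts, for edgeR 4.0.16, DESeq2 1.42.0 and limma-voom. In all, 17 alternatives were run: other pseudocounts (0.5 and 5), no minimum, a minimum of 20, those 3 tools, library total scaling, a term for the number range, a covariate for Y-linked reads, and each library left out. Fits were tested on simulated data. Counting error is relatively largest for the scarcest of the 10 genes, Ovol1, Sbsn and Cdsn. Krtdap, the most abundant, varied between libraries too, with 1469.2, 3783.3 and 1179.2 normalized counts in Cre-positive 45, 76 and 80.

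The 10 genes and the related lists were chosen with earlier results of these data known. From each related list the 3 called genes with the largest change were to be named. Called neighbours within 50 kb and the 2 genes of the genotype were to be named too. Grhl2, Ovol2, Krt10, Epcam, Lypd2, Ly6d and the basal and cortical markers not called were named besides, after their values were seen. Promoter windows came from RefSeq (GRCm38.p6).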

Additional observations from a re-analysis of the deposited data

How the results depend on the processing

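No paired analysis was possible because the genotypes share no replicate number. The main test called 2084 genes lower and 1066 higher, and 4 of the 10 genes lower. By limma-voom 1352 genes were lower and 2 of the 10. With library total scaling, which moves the median of all genes from -0.10 to -0.30, 583 genes were higher, 2638 were lower, and 6 of the 10 were called lower. With the Y-linked covariate, 678 genes were higher and 2 of the 10 were lower. That covariate was 9.49 in Cre-negative 48 and at most 0.25 in any other library. It is therefore close to leaving out Cre-negative 48, and hardly a separate alternative. Leaving out 1 library at a time gave 1990 to 2696 genes called in all, against 3150 with all libraries, 1315 to 1759 lower and 600 to 1008 higher, and 1 to 5 of the 10 lower. The fewest of the 10 came without Cre-negative 46 (1), where Grhl3 alone was called, then without Cre-negative 48 or 75 or Cre-positive 80 (2 each). None of the 10 was called higher under any of the 17 alternatives. In 170 refitted values of the 10 genes, 143 kept direction and side of the threshold, 19 no longer passed, 7 passed that had not, and 1 turned, Sbsn at 0.20 without Cre-positive 45, the upper end of its range of -1.35 to 0.20 over the libraries left out. Ovol1, Sbsn and Cdsn had the fewest normalized counts of the 10 genes on average over the 7 libraries, and what sets the spread of their libraries was not tested.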
